A study of Mus musculus with 6 samples.

Results

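The 10 genes described here encode the metabolic nuclear receptors of liver and a partner of PPAR-alpha: Ppara, Ppard, Pparg, Rxra, Rxrb, Nr1h2, Nr1h3, Hnf4a, Nr3c1 and Creb3l3. They were chosen by gene symbol, and all 10 were found among the 55487 genes of the deposited tables and passed the filter on low counts, which left 13498 genes for testing. Poly(A) RNA was sequenced from frozen liver of male mice aged 8 weeks, kept on chow. The SCADD group was the substrain BALB_cBYJ and the WT group the substrain BALB_cJ, with 3 animals each and 1 library per animal. SCADD stands for deficiency of the enzyme encoded by Acads, short-chain acyl-CoA dehydrogenase, which in mitochondria begins the breakdown of short-chain fatty acids. Each group was a single inbred substrain, so the enzyme defect and every other difference between the substrains cannot be told apart.

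Nuclear receptors are transcription factors that bind small lipid-soluble ligands and recruit coactivators or corepressors to the genes they control. The PPARs are sensors of fatty acids and the LXRs sensors of oxysterols, and both bind DNA as heterodimers with an RXR. PPAR-alpha drives fatty acid oxidation in hepatocytes, PPAR-gamma drives fat storage in adipose tissue and is low in normal liver, HNF4-alpha maintains hepatocyte identity, and the glucocorticoid receptor carries the hormonal signal of stress and fasting. CREB3L3, also called CREBH, is a membrane-bound bZIP factor, not a receptor, which works with PPAR-alpha on fasting genes.

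Reads counted in genes ranged from 16948986 to 23912744 in SCADD libraries and from 23991104 to 27148756 in WT libraries. Unmapped reads made up 25.1% to 36.6% of reads in SCADD libraries, with the highest share in SCADD replicate 3, and 13.6% to 16.4% in WT libraries. SCADD replicate 3 also had the lowest gene total. Major urinary protein (Mup) genes took 7.37%, 8.53% and 14.8% of TPM in SCADD replicates 1, 2 and 3. In WT replicates 1, 2 and 3 they took 3.60%, 3.23% and 4.16%. Acads, which carries the defect, averaged 100.2 ± 3.78 CPM in SCADD livers and 182 ± 15.2 CPM in WT livers (SD, n = 3 each). Its log2 fold change was -0.86 (edgeR adjusted p of 0.00407). Fkbp5, a glucocorticoid-responsive gene chosen after its values were seen, was at 32.1 to 59.5 CPM in SCADD libraries and at 11.9, 71.1 and 64.6 CPM in WT replicates 1, 2 and 3. WT replicate 1 was low in this gene. Over all genes, its chi-square per degree of freedom to the other WT libraries was 32.8 and 38.0, against 38.1 between them. Its Pearson r of log2 CPM with them was slightly lower, at 0.9911 and 0.9907, against 0.9933 between them. Values below are in CPM, the count of a gene scaled by TMM to a common library size, unless TPM is named. TPM corrects for transcript length and was used as deposited, without TMM scaling. It is therefore not adjusted for differences in composition between libraries, such as the Mup share.

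Of the 10 genes, Pparg was called, at an edgeR adjusted p under 0.05 over all tested genes, and it was higher in SCADD livers. The share called among all tested genes was 7.02%, made up of 4.22% higher and 2.8% lower, so 1 call in 10 was near the background. Over all genes that was 569 higher and 378 lower calls, and upper-quartile scaling gave 470 higher and 482 lower. No gene of the 10 was called lower by edgeR, DESeq2 or limma-voom, and 4 of the 10 had an unadjusted p under 0.05, beside 22.7% of all tested genes. SCADD and WT libraries were apart in CPM, with no overlap, for 6 of the 10 genes, beside 28.0% of all tested genes. SCADD libraries lay above WT libraries for Ppara, Pparg, Hnf4a and Nr3c1, and below them for Rxrb and Nr1h3. In TPM the groups stayed apart for Pparg, Rxrb and Nr1h3 but overlapped for Ppara, Hnf4a and Nr3c1. The median log2 fold change was 0.24 over the 10 genes and -0.00 over all tested genes. The 9 genes not called had log2 fold changes between -0.37 and 0.47, so Pparg was far outside the range of the others. In simulated data the test found only 13.6% of genes altered 1.5-fold, a larger change than any of these 9 had. For them the lack of a call therefore does not show an unchanged level.

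**Figure D1:**
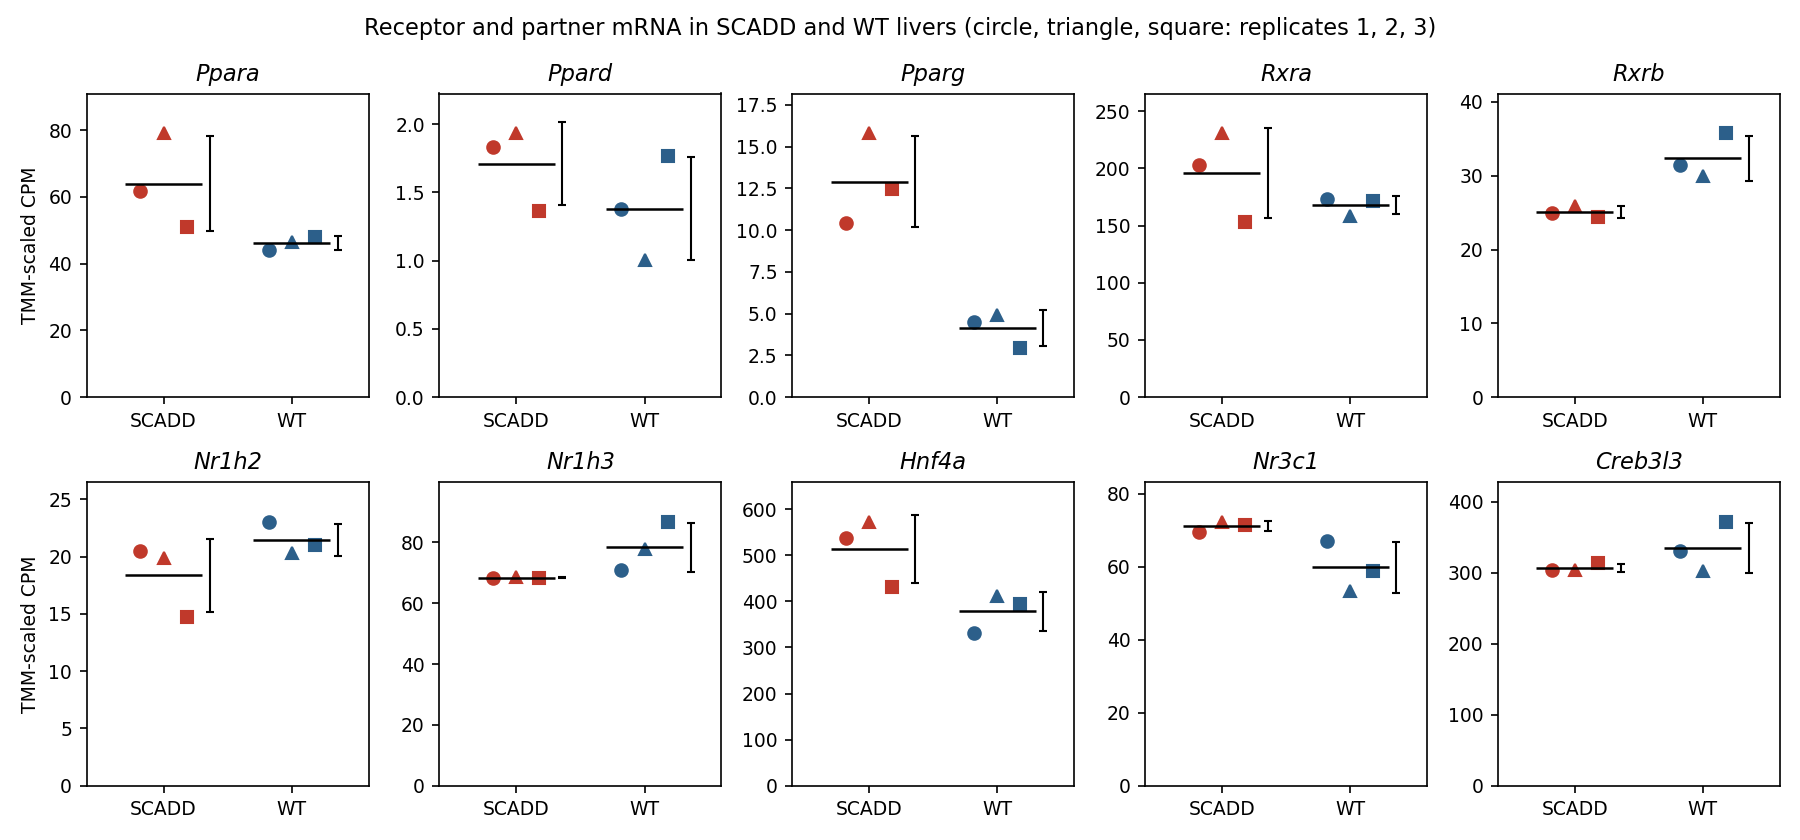
Each panel plots 1 gene in TMM-scaled CPM on the y axis, with SCADD libraries in red on the left and WT libraries in blue on the right; points are libraries, lines are means and bars are SD (n = 3). In the Pparg panel the SCADD points lie between 10.4 and 15.8 CPM and the WT points between 2.93 and 4.94 CPM, while the groups overlap for Ppard, Rxra, Nr1h2 and Creb3l3.

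Pparg (ENSMUSG00000000440, chr6:115360951-115490399, plus strand, GRCm38) encodes PPAR-gamma. It had 10.4, 15.8 and 12.5 CPM in SCADD replicates 1, 2 and 3, against 4.52, 4.94 and 2.93 CPM in WT replicates 1, 2 and 3. Every SCADD library was above every WT library, and the gap between the groups was wider than the range of the WT libraries. The means were 12.9 ± 2.73 CPM in SCADD livers and 4.13 ± 1.06 CPM in WT livers (SD, n = 3 each). The log2 fold change was 1.64 with an SE of 0.23, a 3.12-fold higher level, and the edgeR adjusted p was 0.00227. Raw counts were modest, at 201 to 335 reads per SCADD library and 78 to 125 per WT library. The call was made under all 17 processing alternatives. With 1 library left out at a time the log2 fold change was 1.45 to 1.79 and the adjusted p was 0.00271 to 0.0101. Without SCADD replicate 3 it was 1.67, and without WT replicate 1 it was 1.70.

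The gene has several starts, and the deposited tables give a single value per gene, so the isoforms could not be told apart. In GENCODE release M21, the transcript Pparg-204 encodes a protein of 475 residues and Pparg-201, which starts further downstream at its own promoter, one of 505 residues. The shorter protein is the broadly expressed form and the longer one the form typical of adipose tissue. The abundance-weighted transcript length that RSEM gave for Pparg was 1707, 1935 and 2012 bases in SCADD replicates 1, 2 and 3, and 1730, 1996 and 1789 bases in WT replicates 1, 2 and 3. These lengths overlapped between the groups. The sequences upstream of the starts of the short-form and the long-form transcript are shown because they are the alternative promoters behind the single Pparg value. They are RefSeq windows on GRCm38.p6, plus strand, 5′ to 3′, without bases that lie in annotated exons: chr6:115362099-115362291 for the short form and chr6:115421816-115422065 for the long form.
Pparg short-form promoter: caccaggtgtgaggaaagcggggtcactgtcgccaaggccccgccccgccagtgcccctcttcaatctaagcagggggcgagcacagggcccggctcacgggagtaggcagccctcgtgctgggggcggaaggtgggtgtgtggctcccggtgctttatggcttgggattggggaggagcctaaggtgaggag
Pparg long-form promoter: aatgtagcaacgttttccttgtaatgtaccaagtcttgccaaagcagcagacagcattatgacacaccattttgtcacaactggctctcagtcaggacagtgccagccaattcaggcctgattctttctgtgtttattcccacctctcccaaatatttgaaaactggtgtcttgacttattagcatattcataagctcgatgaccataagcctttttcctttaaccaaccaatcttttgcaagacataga
The nuclear receptor half-site AGGTCA was searched on both strands and is absent from the bases printed, so no letters are in capitals. In full, the window before the short-form start held 1 half-site, in annotated exon bases left out here, as did another Pparg window further upstream, chr6:115360894-115361143, and the long-form window held none. G and C made up 66.8% of the short-form sequence and 40.8% of the long-form sequence.

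Ppara (ENSMUSG00000022383, chr15:85734983-85802819, plus strand), the main PPAR of hepatocytes, had 61.8, 79.1 and 50.9 CPM in SCADD replicates 1, 2 and 3, against 44.0, 46.4 and 48.1 CPM in WT replicates 1, 2 and 3. The groups did not overlap, but SCADD replicate 3 was close to the WT libraries and the SCADD libraries were spread more widely. In TPM, SCADD replicate 3 was below the WT libraries (11.4, against 13.9 to 15.7). The log2 fold change was 0.47 with an SE of 0.16, and the edgeR adjusted p was 0.112. Without SCADD replicate 3 Ppara was called, with a log2 fold change of 0.61 and an adjusted p of 0.0141. Hnf4a was then called as well, which made 3 calls among the 10 genes, beside 11.5% of all genes tested without that library.

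Ppard (ENSMUSG00000002250, chr17:28232700-28301474, plus strand), the PPAR of muscle and many other tissues, was scarce. It had 1.84, 1.93 and 1.36 CPM in SCADD replicates 1, 2 and 3, against 1.37, 1.01 and 1.76 CPM in WT replicates 1, 2 and 3, from 22 to 47 reads per library. The groups overlapped, and the log2 fold change of 0.31 with an SE of 0.28 gave an adjusted p of 0.569.

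The balance of the PPARs was read from TPM within each library. Pparg made up 23.0%, 23.8% and 30.4% of the summed TPM of the PPAR genes in SCADD replicates 1, 2 and 3, against 14.7%, 13.4% and 10.9% in WT replicates 1, 2 and 3. All SCADD shares were above all WT shares. The ratio of Pparg to Ppara averaged 0.359 ± 0.0778 in SCADD livers and 0.154 ± 0.0267 in WT livers (SD, n = 3 each), 2.32-fold higher in SCADD livers. For both quantities an exact permutation test, two-sided, gave p = 0.1, the smallest value that 3 against 3 animals allow, and 0.2 after Benjamini-Hochberg adjustment over the 6 ratios compared. The ratio of Ppard to Ppara was 0.0286 ± 0.00568 in SCADD livers and 0.0322 ± 0.0131 in WT livers (SD, n = 3 each), with overlapping values and an exact p of 0.9.

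**Figure D2:**
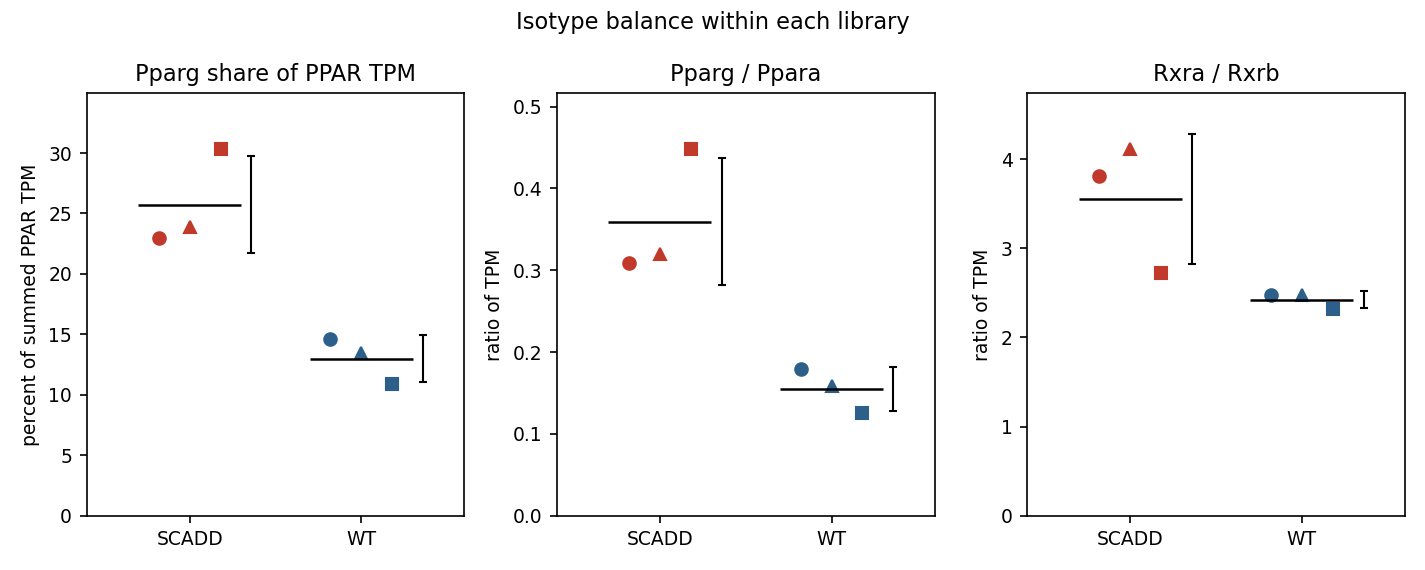
The panels plot, on linear y axes from 0, the share of Pparg in the summed PPAR TPM in percent and the TPM ratios Pparg/Ppara and Rxra/Rxrb, with SCADD libraries in red on the left and WT libraries in blue on the right; circles, triangles and squares are replicates 1, 2 and 3, lines are means and bars are SD (n = 3 each). The Pparg shares lie at 23.0% to 30.4% in SCADD libraries and 10.9% to 14.7% in WT libraries, and the groups are apart in all panels, for Rxra/Rxrb by the smallest margin.

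Rxra (ENSMUSG00000015846, chr2:27676440-27762957, plus strand) encodes RXR-alpha, the main liver partner of PPAR-alpha and the LXRs. It had 203, 231 and 153 CPM in SCADD replicates 1, 2 and 3, against 173, 159 and 171 CPM in WT replicates 1, 2 and 3. SCADD replicates 1 and 2 were above the WT libraries and SCADD replicate 3 was below them. The log2 fold change was 0.22 with an SE of 0.17 (edgeR adjusted p of 0.480). Rxrb (ENSMUSG00000039656, chr17:34031812-34038399, plus strand), the more broadly expressed RXR, had 24.9, 25.9 and 24.4 CPM in SCADD replicates 1, 2 and 3, against 31.4, 29.9 and 35.8 CPM in WT replicates 1, 2 and 3. The SCADD libraries were close together and all below the WT libraries. Its log2 fold change was -0.37 with an SE of 0.12, and the adjusted p was 0.107, short of the threshold.

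The 2 RXR genes thus had log2 fold changes of opposite sign, neither of them called. The TPM ratio of Rxra to Rxrb was 3.81, 4.12 and 2.73 in SCADD replicates 1, 2 and 3, against 2.48, 2.48 and 2.32 in WT replicates 1, 2 and 3. The ratio was 1.44-fold higher in SCADD livers without overlap, with an exact two-sided permutation p of 0.1 and an adjusted value of 0.2. Per PPAR-alpha transcript, Rxra was at 2.06 ± 0.156 in SCADD livers and 2.39 ± 0.235 in WT livers (SD, n = 3 each; exact p = 0.2).

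RefSeq windows of 250 bases before a start were searched for 9 of the 10 genes, and Nr3c1 was left out of this search. Among their 16 windows, the half-site AGGTCA was present on either strand in 4, of which 2 were windows of Pparg. The share over all 32851 windows was 14.0%. A pair of half-sites spaced by 1 base, AGGTCANAGGTCA, the form bound by PPAR and RXR, was matched with up to 2 mismatches in 2 of the 16 windows, beside 3.24% of all windows. The pair spaced by 4 bases, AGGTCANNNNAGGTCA, the form bound by LXR and RXR, was matched in 0 of the 16, beside 2.57% of all windows. The window before the second start of Rxra (chr2:27709042-27709291, GRCm38.p6, plus strand, 5′ to 3′) is shown because it held the most half-sites. Capitals mark them, 1 on each strand.
Rxra second promoter: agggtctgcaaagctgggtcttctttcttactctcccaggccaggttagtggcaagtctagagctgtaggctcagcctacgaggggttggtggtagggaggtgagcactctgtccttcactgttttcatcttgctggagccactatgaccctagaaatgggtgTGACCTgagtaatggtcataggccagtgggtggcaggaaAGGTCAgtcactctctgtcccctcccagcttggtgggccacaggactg
These matches describe letters only, since binding was not measured in these libraries.

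Nr1h3 (ENSMUSG00000002108, chr2:91184061-91202834, minus strand) encodes LXR-alpha, the LXR enriched in liver. It had 68.4, 68.6 and 68.3 CPM in SCADD replicates 1, 2 and 3, against 70.8, 77.8 and 86.9 CPM in WT replicates 1, 2 and 3. The SCADD libraries were nearly equal and all lay below the WT libraries. The log2 fold change of -0.20 (SE 0.13) gave an edgeR adjusted p of 0.405. Its exons overlap those of Gm13783 on the same strand, so some of its reads could have been counted as ambiguous. Nr1h2 (ENSMUSG00000060601, chr7:44549616-44553951, minus strand), which encodes the ubiquitous LXR-beta, had 20.5, 19.9 and 14.7 CPM in SCADD replicates 1, 2 and 3, against 23.0, 20.3 and 21.0 CPM in WT replicates 1, 2 and 3. The groups overlapped (log2 fold change -0.22, SE 0.15, adjusted p of 0.433). The TPM ratio of Nr1h3 to Nr1h2 was 3.77 ± 0.595 in SCADD livers and 3.89 ± 0.586 in WT livers (SD, n = 3 each; exact p = 1).

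Hnf4a (ENSMUSG00000017950, chr2:163506808-163572910, plus strand) had the highest CPM of the 10 genes. It had 537, 573 and 431 CPM in SCADD replicates 1, 2 and 3, against 331, 411 and 394 CPM in WT replicates 1, 2 and 3. All SCADD libraries were above all WT libraries, SCADD replicate 3 by the smallest margin. In TPM, SCADD replicate 3 was below them (76.9, against 82.0 to 93.4). The log2 fold change was 0.44 with an SE of 0.17, and the edgeR adjusted p was 0.147. Without SCADD replicate 3 it was 0.56, with an adjusted p of 0.0307.

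Nr3c1 (ENSMUSG00000024431, chr18:39410545-39519421, minus strand), the glucocorticoid receptor gene, had 69.5, 72.3 and 71.3 CPM in SCADD replicates 1, 2 and 3, against 67.1, 53.3 and 58.8 CPM in WT replicates 1, 2 and 3. The groups did not overlap, but WT replicate 1 was close to the SCADD libraries. In TPM the groups overlapped (9.07 to 13.15 in SCADD and 8.84 to 11.92 in WT libraries). The log2 fold change was 0.25 with an SE of 0.13 (edgeR adjusted p of 0.289). Creb3l3 (ENSMUSG00000035041, chr10:81084324-81098874, minus strand) had 303, 304 and 313 CPM in SCADD replicates 1, 2 and 3, against 331, 302 and 372 CPM in WT replicates 1, 2 and 3. The groups overlapped through WT replicate 2, and the log2 fold change was -0.13 with an SE of 0.14 (adjusted p of 0.665).

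**Figure D3:**
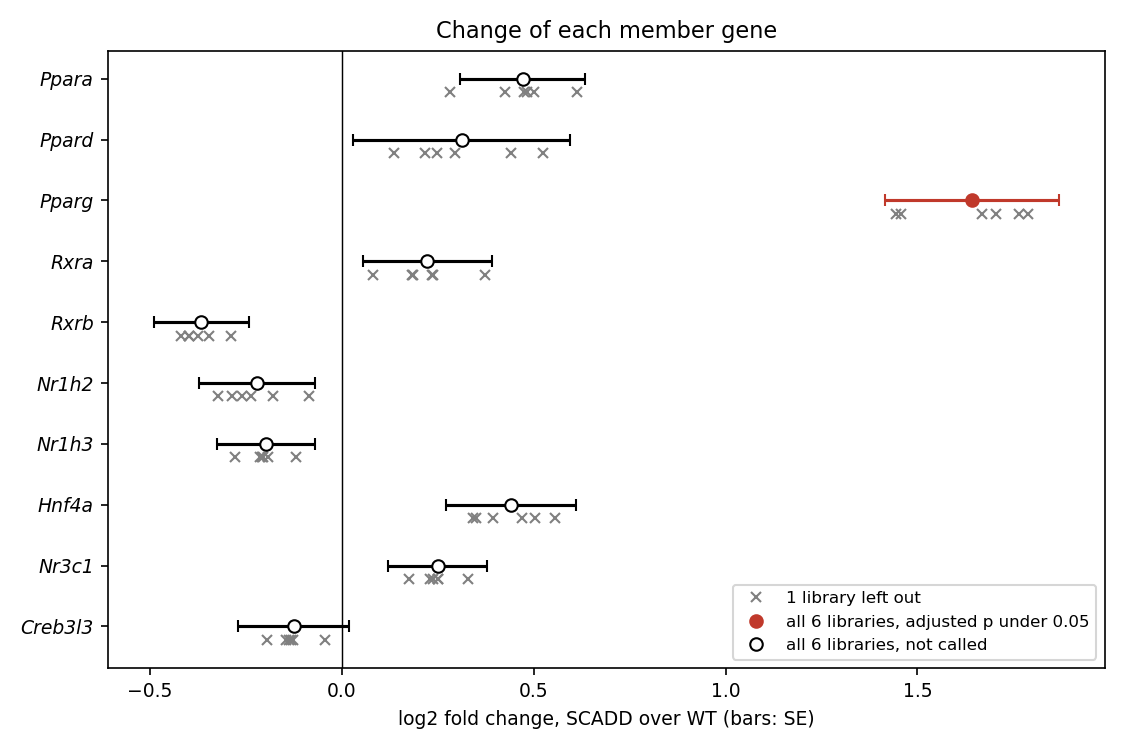
The x axis shows the log2 fold change of SCADD over WT from edgeR, with 1 row per gene; points are estimates from 3 against 3 libraries, bars are 1 SE, and grey crosses are estimates with 1 library left out. Pparg lies at 1.64 and its left-out estimates at 1.45 to 1.79, while the other 9 genes lie between -0.37 and 0.47.

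Levels between the genes were compared in TPM. In SCADD livers the order from high to low was Creb3l3, Hnf4a, Rxra, Nr1h3, Ppara, Nr3c1, Rxrb, Nr1h2, Pparg and Ppard. Creb3l3 was at 134 ± 22.0 TPM and Hnf4a at 116 ± 34.5 TPM in SCADD livers, and at 151 ± 14.3 and 87.4 ± 5.74 TPM in WT livers (SD, n = 3 each). Ppara was at 20.1 ± 8.37 TPM in SCADD livers and 14.9 ± 0.933 TPM in WT livers. Pparg was at 6.85 ± 1.97 TPM in SCADD livers and 2.32 ± 0.505 TPM in WT livers. Ppard was lowest, at 0.560 ± 0.202 TPM in SCADD livers and 0.477 ± 0.190 TPM in WT livers. In SCADD livers the ranges of neighbours in the order overlapped, except between Hnf4a and Rxra, between Nr1h3 and Ppara, and between Pparg and Ppard. Of the overlapping neighbours, those within each of the 3 SCADD libraries kept their order for Creb3l3 over Hnf4a, Ppara over Nr3c1, Nr3c1 over Rxrb and Nr1h2 over Pparg. Rxra was above Nr1h3, and Rxrb above Nr1h2, in 2 of the 3. The WT order differed in that Nr1h3 stood before Rxra, and Nr3c1 after Rxrb and Nr1h2. In WT livers neighbours overlapped only for Ppara with Rxrb, Rxrb with Nr1h2, and Nr1h2 with Nr3c1. Within libraries, Ppara was above Rxrb in 1 of 3, and the other 2 pairs kept their order in all 3.

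The genes whose pattern over the 6 libraries was most like that of Pparg, by Pearson r of log2 CPM among 10531 genes of at least 1 CPM, were Mboat7, Ptprk and Ap1ar. Mboat7, a lysophosphatidylinositol acyltransferase, had r = 0.997, Ptprk, a receptor tyrosine phosphatase, 0.997, and Ap1ar, an adaptor complex regulator, 0.992. These values share libraries and the difference between the groups, and 122 genes had r above 0.95. The SCADD libraries were above the WT libraries for each of them, but by less than for Pparg. Mboat7 had a log2 fold change of 0.25 (edgeR adjusted p of 0.249), Ptprk 0.46 (0.0494) and Ap1ar 0.57 (0.0292). The call of Ptprk was lost under 13 of the 17 alternatives, with an adjusted p of up to 0.193. That of Ap1ar was lost when any library other than SCADD replicate 3 was left out (0.0652 to 0.127).

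Coregulators are the proteins through which these receptors act. Of 18 tested, Ppargc1a, which encodes the coactivator PGC-1alpha, fell and none rose, beside 2.8% lower and 4.22% higher over all tested genes, so 1 call in 18 was near the background. No coregulator was called higher by DESeq2 or limma-voom either, and 7 of the 18 had an unadjusted p under 0.05, beside 22.7% of all tested genes. Ppargc1a had 4.65, 6.18 and 3.60 CPM in SCADD replicates 1, 2 and 3, against 11.4, 24.7 and 15.3 CPM in WT replicates 1, 2 and 3. The groups did not overlap, and the log2 fold change was -1.82 with an SE of 0.30 (edgeR adjusted p of 0.00744, and 0.0516 without SCADD replicate 3). Ppargc1a and Pparg thus moved in opposite directions. The median log2 fold change of the coregulators was 0.25. Without WT replicate 1 a second coregulator fell, Lpin1, the coactivator lipin-1, which was chosen after its values were seen (adjusted p of 0.000789, against 0.307 with all libraries). The corepressor gene Ncor1 and the coactivator gene Ncoa1, chosen after their values were seen, were called higher only without SCADD replicate 3 (adjusted p of 0.0164 and 0.0430). Without that library 11.5% of all genes tested were called.

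Of 27 other liver nuclear receptors, 24 were tested, 3 rose and none fell, beside 4.22% higher and 2.8% lower over all tested genes, and DESeq2 and limma-voom likewise called none lower, while 9 of the 24 had an unadjusted p under 0.05, beside 22.7% of all tested genes. Nr1i3, the xenobiotic receptor CAR and another RXR partner, averaged 337 ± 28.6 CPM in SCADD livers and 172 ± 26.8 CPM in WT livers (SD, n = 3 each; edgeR adjusted p of 0.00617). Rora, a clock-related receptor, was higher by 0.58 on the log2 scale (adjusted p of 0.0415). That call was lost without SCADD replicate 1 (0.133) or without WT replicate 1, 2 or 3 (0.0691 to 0.141), and with upper-quartile scaling (0.0533). Rxrg, the third RXR gene, chosen after its values were seen, had 8.27 ± 1.39 CPM in SCADD livers and 6.33 ± 0.427 CPM in WT livers (adjusted p of 0.210). Nr0b2, the corepressor receptor SHP, also chosen so, had 22.1, 22.3 and 21.0 CPM in SCADD replicates 1, 2 and 3, against 19.9, 46.4 and 37.1 CPM in WT replicates 1, 2 and 3. Its adjusted p was 0.166, and 0.00883 without WT replicate 1.

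Known targets of PPAR-alpha rose in 16 of 35 cases and fell in none, beside 4.22% higher and 2.8% lower over all tested genes. Their median log2 fold change was 0.78. Ppara itself was not called, but its log2 fold change of 0.47 was of a size that the test would mostly miss. DESeq2 called 23 and limma-voom 17 of the targets higher and none lower. Over all genes DESeq2 called 745 and limma-voom 558 higher, against 569 by edgeR. Of the 35, 25 were under 0.05 before adjustment (22.7% of all tested genes), and 12 to 18 were called higher with 1 library left out. Acot3 and Acot4, peroxisomal acyl-CoA thioesterases, averaged 124 ± 19.5 and 278 ± 23.6 CPM in SCADD livers, against 6.90 ± 1.40 and 55.8 ± 5.76 CPM in WT livers (edgeR adjusted p of 2.32e-06 and 1.87e-05). The Acot genes are close copies of each other, so their separate values are uncertain. Pex11a, a peroxisome division factor, averaged 303 ± 41.6 CPM in SCADD livers and 82.0 ± 9.75 CPM in WT livers (adjusted p of 0.000122). Fitm1, a factor in lipid droplet formation, averaged 27.1 ± 4.33 CPM in SCADD livers and 1.57 ± 0.842 CPM in WT livers (SD, n = 3 each; adjusted p of 0.000268). Over the 35 targets the median log2 difference from the WT mean was 0.89, 0.68 and 0.67 in SCADD replicates 1, 2 and 3, and 0.20, -0.08 and -0.11 in WT replicates 1, 2 and 3. All SCADD libraries were above all WT libraries. The part of the Ppara level in these values was not tested. Targets chosen after their values were seen that were not called included Cpt1a, the carnitine palmitoyltransferase of long-chain oxidation (log2 fold change 0.27), and Plin2, a lipid droplet coat protein (0.14).

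Of 12 genes known as PPAR-gamma targets in fatty liver, 10 were tested, 4 rose and 1 fell. The shares over all tested genes were 4.22% higher and 2.8% lower. The median log2 fold change was 1.08, but the libraries varied. The median log2 difference from the WT mean was 0.85, 0.12 and 1.83 in SCADD replicates 1, 2 and 3, and 0.26, -0.15 and -0.26 in WT replicates 1, 2 and 3. SCADD replicate 2, where Pparg was highest, lay below WT replicate 1. Mogat1, a monoacylglycerol acyltransferase, had 6.98, 5.33 and 8.06 CPM in SCADD replicates 1, 2 and 3, against 0.398, 0.350 and 0.601 CPM in WT replicates 1, 2 and 3. It was 14.8-fold higher in SCADD livers (log2 fold change 3.89, SE 0.28, edgeR adjusted p of 3.81e-05). Cd36, a fatty acid transporter, had 184, 375 and 499 CPM in SCADD replicates 1, 2 and 3, against 77.2, 56.1 and 63.0 CPM in WT replicates 1, 2 and 3 (5.38-fold, adjusted p of 0.00391). Both were above the WT range in every SCADD library, as Pparg was, although neither had its highest value in SCADD replicate 2, where Pparg peaked. Plin4, a lipid droplet coat protein, was higher by 2.10 on the log2 scale (adjusted p of 0.0103, and 0.0637 without SCADD replicate 2 or 0.0607 without SCADD replicate 3). The fourth to rise, G0s2, an inhibitor of triglyceride lipase, was chosen after its values were seen (log2 fold change 1.34, adjusted p of 0.0120, and 0.0771 without WT replicate 2). Lpl, lipoprotein lipase, went the other way, with 9.99, 7.03 and 8.75 CPM in SCADD replicates 1, 2 and 3, against 47.4, 35.8 and 22.0 CPM in WT replicates 1, 2 and 3 (log2 fold change -2.03, adjusted p of 0.00262). Several of these genes, Cd36 among them, are also controlled by PPAR-alpha, and the part of either receptor was not tested.

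**Figure D4:**
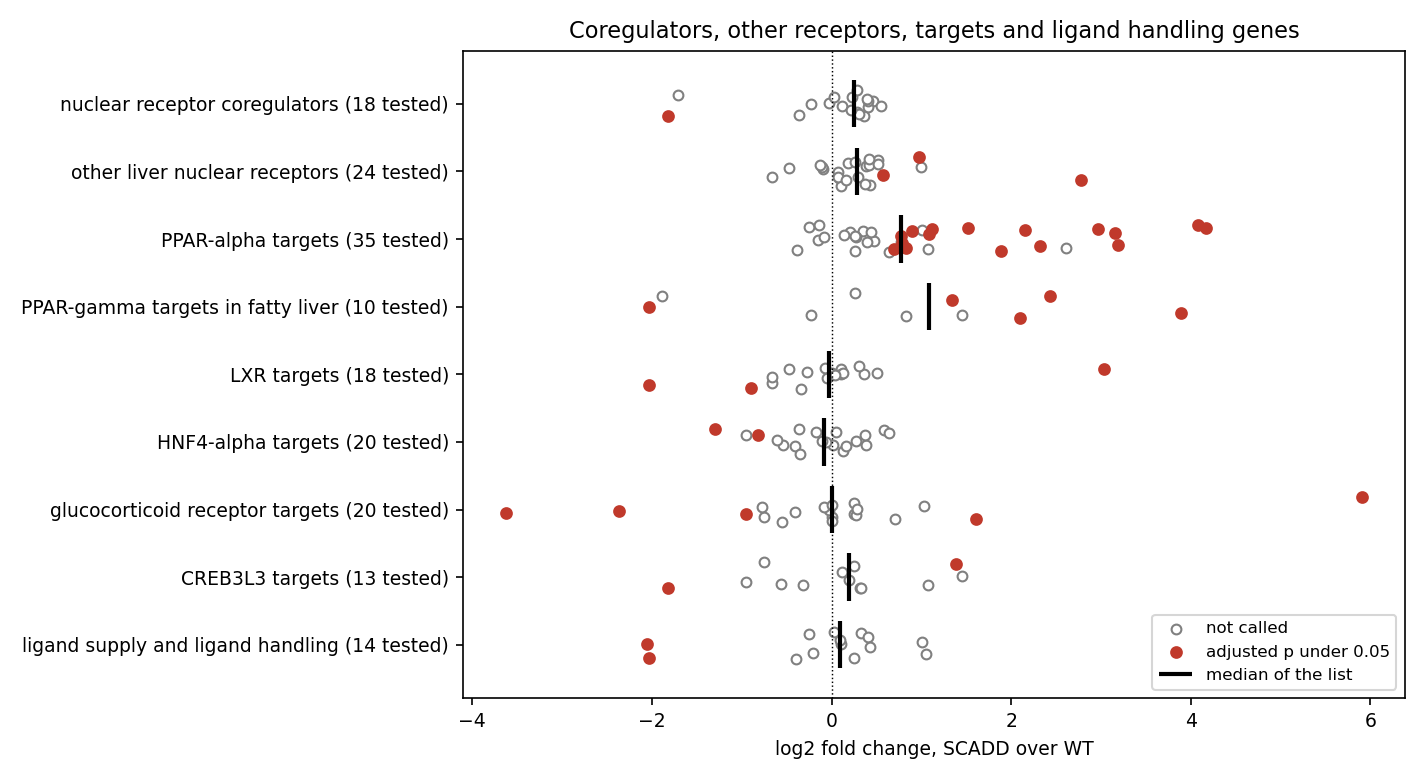
The x axis shows the log2 fold change of SCADD over WT from edgeR for the tested genes of each list, 1 row per list; filled points were called at an adjusted p under 0.05, open points were not, and vertical marks are medians. The PPAR-alpha and PPAR-gamma target rows have medians of 0.78 and 1.08, while the LXR, HNF4-alpha and glucocorticoid receptor target rows have medians of -0.02, -0.08 and 0.01.

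The background for the remaining lists was 7.02% of all tested genes called and 22.7% at an unadjusted p under 0.05. Without SCADD replicate 3, 11.5% of all genes tested were called. DESeq2 called 1290 genes over all, against 947 by edgeR. Among 18 LXR targets 1 rose and 2 fell, with a median log2 fold change of -0.02. Scd1, the stearoyl-CoA desaturase, averaged 387 ± 207 CPM in SCADD livers and 47.3 ± 27.0 CPM in WT livers (edgeR adjusted p of 0.0475). Its call was lost when any library other than WT replicate 1 was left out (adjusted p of 0.0548 to 0.185). Abcg5, a sterol exporter, averaged 56.4 ± 12.6 CPM in SCADD livers and 105 ± 3.62 CPM in WT livers (adjusted p of 0.0104, and 0.0527 without WT replicate 2), and Lpl, also an LXR target, is given above. Abca1, the cholesterol efflux pump, was also looked at after the values were known, and its log2 fold change was 0.01.

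Of 20 HNF4-alpha targets 2 fell and none rose in edgeR, and the median log2 fold change was -0.08. DESeq2 called 1 higher and 4 lower, limma-voom 0 and 2, edgeR called 2 higher without SCADD replicate 3, and 8 of the 20 were under 0.05 before adjustment. Slc27a5, a bile acid-CoA ligase, averaged 508 ± 108 CPM in SCADD livers and 1249 ± 18.3 CPM in WT livers (adjusted p of 0.00285). Slc10a1, the bile acid importer NTCP, averaged 691 ± 108 CPM in SCADD livers and 1216 ± 156 CPM in WT livers (SD, n = 3 each; adjusted p of 0.0239, and 0.130 without WT replicate 2 or 0.0774 without WT replicate 3). Both were lower in every SCADD library, whereas Hnf4a in CPM was above the WT range in every SCADD library. In TPM, Hnf4a was below the WT range in SCADD replicate 3 (76.9, against 82.0 to 93.4).

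Of 20 glucocorticoid receptor targets 2 rose and 3 fell, with a median log2 fold change of 0.01. Mfsd2a, a lysophospholipid transporter, had 67.9, 36.6 and 44.7 CPM in SCADD replicates 1, 2 and 3, against 0.289, 1.27 and 0.976 CPM in WT replicates 1, 2 and 3 (edgeR adjusted p of 0.000351). Lcn2, an acute phase protein, was higher by 1.61 on the log2 scale (adjusted p of 0.00850). The metallothionein genes Mt1 and Mt2 were lower, with log2 fold changes of -2.37 and -3.62 (adjusted p of 0.00218 and 0.0101, and 0.0512 and 0.0811 without SCADD replicate 3). The third to fall was Sds, the serine dehydratase gene, chosen after its values were seen (log2 fold change -0.96, adjusted p of 0.0137, and 0.0541 without SCADD replicate 1 or 0.0785 without WT replicate 2). Without SCADD replicate 3 a single target of this list was called lower. Of 13 CREB3L3 targets, Hamp, which encodes the iron hormone hepcidin, rose with 442 ± 159 CPM in SCADD livers and 169 ± 67.7 CPM in WT livers (adjusted p of 0.0416, up to 0.140 with 1 library left out), and Ppargc1a fell. Hamp was not called without SCADD replicate 1 or 2 or WT replicate 2 or 3, and without SCADD replicate 3 there were 2 calls higher in this list. Fgf21, a fasting hormone shared with PPAR-alpha and chosen after its values were seen, had 22.9, 11.7 and 7.32 CPM in SCADD replicates 1, 2 and 3, against 5.79, 7.61 and 6.61 CPM in WT replicates 1, 2 and 3 (adjusted p of 0.137, and 0.0211 without SCADD replicate 3).

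Of 21 genes that supply or handle receptor ligands, 14 were tested, 2 fell and none rose in edgeR, with a median log2 fold change of 0.10. DESeq2 called 2 higher, limma-voom none, and edgeR 2 without SCADD replicate 2 and 1 without SCADD replicate 3, and 6 of the 14 were under 0.05 before adjustment. Besides Lpl, the gene that fell was Cyp7b1, the oxysterol hydroxylase, with 79.7 ± 28.2 CPM in SCADD livers and 331 ± 125 CPM in WT livers (SD, n = 3 each; edgeR adjusted p of 0.0101).

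Liver tissue holds several cell types, and in bulk libraries fewer cells of a type and less RNA per cell cannot be told apart. The tissue label was met by hepatocyte markers, whose summed level was 46474 to 96670 TPM in SCADD libraries and 69917 to 96086 TPM in WT libraries. Ahsg alone was called by edgeR, lower (adjusted p of 0.0142, and 0.0984 without WT replicate 2 or 0.0546 without WT replicate 3). DESeq2 called 2 hepatocyte markers lower, and 3 of the 7 tested had an unadjusted p under 0.05 in edgeR, beside 22.7% of all tested genes. Pparg is strongly expressed in adipocytes, and the part of such cells in its level was not tested. The adipocyte hormone gene Adipoq was at 0.612, 0.472 and 0.310 CPM in SCADD replicates 1, 2 and 3, against 4.67, 0.306 and 0.300 CPM in WT replicates 1, 2 and 3. It was near 0 in every library but WT replicate 1, and 4 of the 7 adipocyte markers, Plin1, Cfd, Retn and Lep, were too low to test. Of the 3 tested, Adipoq, Car3 and Fabp4, 2 had a positive log2 fold change, and the median was 0.67. Lep had 0 counts in every SCADD library. The summed level of all 7 adipocyte markers, mostly from Car3, which hepatocytes also express, was 811 to 3648 TPM in SCADD libraries and 1060 to 1276 TPM in WT libraries. Of 11 Kupffer cell markers none was called by edgeR (2 had an unadjusted p under 0.05, and 2 were called lower without SCADD replicate 3), and their sum was 160 to 189 TPM in SCADD libraries and 187 to 259 TPM in WT libraries. Lyve1, 1 of 9 sinusoidal endothelial markers, was called lower (adjusted p of 0.0152, and 0.0703 without WT replicate 2 or 0.0625 without WT replicate 3). Of these 9 markers, 4 had an unadjusted p under 0.05 in edgeR and 1 had a positive log2 fold change. Their sum was 101 to 134 TPM in SCADD libraries and 162 to 201 TPM in WT libraries. Stellate cell markers summed to 189 to 261 TPM in SCADD libraries and 214 to 316 TPM in WT libraries, and biliary markers to 26.6 to 29.3 TPM in SCADD libraries and 36.4 to 45.4 TPM in WT libraries. Lymphocyte markers summed to 2.24 to 2.81 TPM in SCADD libraries and 1.84 to 4.47 TPM in WT libraries. No stellate, biliary, adipocyte or lymphocyte marker was called by edgeR, with 1, 2, 0 and 0 at an unadjusted p under 0.05, and DESeq2 and limma-voom called none of these or of the Kupffer markers. Nearest to a call were Epcam and Spp1 of the biliary list (log2 fold changes -1.13 and -0.45, edgeR adjusted p of 0.0773 and 0.0987) and Ecm1 of the stellate list (-0.43, 0.110). The others with the smallest p of their lists were Pdgfrb at 0.29, Marco at 1.42, C1qa at -0.41, Car3 at 0.67, Cd3g at -0.50 and Ms4a1 at -0.57, all log2 fold changes with an adjusted p of 0.176 or more. Of the biliary markers, 2 were called lower without SCADD replicate 3, and without it 2 endothelial markers were. Without that library 11.5% of all genes tested were called. The part of the endothelial and biliary sums, which were lower in every SCADD library, in the lower Rxrb and Nr1h3 levels was not tested.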

How the data were processed

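Poly(A) RNA libraries of 3 SCADD and 3 WT livers were mapped to GRCm38 and counted with STAR 2.7.6a and RSEM 1.3.3, per the submitters' processing notes. Their annotation is not given in the sources used here. Symbols and coordinates come from GENCODE M21. The authors deposited unnormalised read counts per gene from STAR and, from RSEM, expected counts, TPM and FPKM. FPKM were not used. The stranded count column holding 96.8% to 97.3% of stranded reads was used. Reads in no gene (1.47% to 2.17%) stayed out. Depth limits low genes, since 3 counts equal 0.111 to 0.177 CPM.

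edgeR 4.0.16 (R 4.3.3) filtered genes by filterByExpr (minimum count 10), scaled by TMM and ran its robust quasi-likelihood test on all 6 libraries, with Benjamini-Hochberg adjustment over 13498 genes and a threshold of 0.05. SE was approximated from the log2 fold change over the root of F. The test was checked on simulated data with known changes. It found 13.6% of the genes altered 1.5-fold, 75.8% of those altered 2-fold and all of those altered 4-fold (66 genes each). Small changes were thus mostly missed. Replicates of a group differed by more than counting noise (chi-square per degree of freedom 32.8 to 121).

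All genes of the list of 10 are named, up to 4 called genes per other list by smallest p (or 2 where none was called), and the 3 genes most like Pparg. Some genes this rule takes are not reported here. The 10 genes and all lists were chosen with earlier results of these data known, so that they are no independent support. Alternatives were other scalings, filters, counts and tools (DESeq2 1.42.0, limma-voom 3.58.1), a replicate block, and leaving out each library. As an alternative input, the deposited expected counts were rounded to whole numbers.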

Additional observations from a re-analysis of the deposited data

How the results depend on the processing

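Pparg was called under all 17 alternatives, and no gene of the 10 changed the sign of its log2 fold change under another scaling. Without a filter on low counts 1702 genes were called, against 947, of which 950 were higher and 752 lower, against 569 and 378, and 2 of the 10 genes were called (Ppara with an adjusted p of 0.0472). Upper-quartile scaling gave 470 higher and 482 lower calls. Leaving out 1 library gave 395 to 1590 calls (1590 without SCADD replicate 3, 517 without replicate 1 of that group, and in WT 395 without replicate 2 and 460 without replicate 3), 240 to 909 higher and 155 to 681 lower, and 1 to 3 of the 10 genes. The log2 ratio difference of Nr1h3 to Nr1h2 was -0.045, turned to 0.014 with counts per effective length, and was -0.18 to 0.028 with 1 library left out. That of Ppard to Ppara was -0.10, and -0.47 to 0.17 with 1 library left out. The cause was not tested.

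The labels do not say that shared replicate numbers pair the animals, and the main fit used no pairing. Same-numbered libraries had correlations of 0.0606, 0.0372 and 0.107 of their deviations. Differently numbered libraries had correlations of -0.127 to 0.0612. Such small values cannot decide whether animals were paired or shared a batch, which was not tested. With the replicate number as a block 1148 genes were called, 668 higher and 480 lower, and 1 of the 10 genes, Pparg, with an adjusted p of 0.000306.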
